A study of Mus musculus with 16 samples.

Results

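The 34 genes described here encode the glucose transporters, glycolytic enzymes, lactate and pyruvate handling proteins and hypoxia-inducible factor (HIF) genes of the foam cell, and they were chosen by name from 48432 genes measured in 16 samples. They comprise 3 glucose transporters, 3 hexokinases, 7 genes of the upper glycolytic steps, 2 regulators of phosphofructokinase, 6 genes of the lower steps, 5 genes for the fate of pyruvate and lactate, 3 genes of HIF and oxygen sensing and 5 other HIF targets. RNA-seq was performed in peritoneal macrophages (PM) of 4 groups of mice with 4 samples each, all with the strain given as C57BL/6J. PM were collected 5 days after 3% thioglycolate and loaded with oxidized LDL (oxLDL, 50 μg/ml) for 48 h in DMEM with 1% FBS, so that every group, controls included, consisted of loaded foam cells. No unloaded PM and no hypoxic PM were among the samples.

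LDAH-Tg mice are hemizygous for a transgene of the lipid droplet-associated hydrolase LDAH, driven by the promoter and intronic enhancer of *Csf1r*, which act in macrophages and granulocytes. The genotype given for their WT controls names both LDAH and ApoE, without saying which *Apoe* allele is meant. LDAH-KO mice lack the first coding exons of *Ldah* in all tissues, and their WT controls are a separate group. The transgenic line was made in hybrid mice and crossed to C57BL/6, whereas the KO line was made in C57BL/6, so mouse line, genetic background and any difference in the time of collection cannot be told apart between the 2 WT groups. The labels gave neither the age of the mice nor whether a sample held PM of 1 mouse or of several.

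Each value is the authors' mean of a group in TPM (transcripts per 1000000), a level per transcript length that can be set side by side between genes. Values of single samples were not analysed here. The differences below therefore come with no SD, no p-value and no check across replicates, and the sequencing depth is unknown. Differences are log2 ratios of the means after adding 0.5 TPM, for genes with a mean of at least 1 TPM over the 2 groups and neither group at 0. Counts of higher or lower genes use a factor of 1.5, which is a limit of size with no test behind it. *Ldah* had 124 TPM in LDAH-Tg PM, 28.5 TPM in their WT controls, 44.5 TPM in the WT controls of LDAH-KO and 27.9 TPM in LDAH-KO PM. The value of the KO group covers the whole gene, not the deleted exons, and does not check that label. *Apoe* was abundant in every group, between 7947 and 10404 TPM. Of the macrophage markers, *Cd68* stood between 3023 and 4959 TPM and *Csf1r* between 94.2 and 108 TPM, while *Lyz2* was listed at 0 in 3 of the 4 groups. None of the 34 genes was listed at 0 in any group.

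Glycolysis splits glucose into pyruvate, and macrophages draw on it when they are activated or short of oxygen. Pyruvate is either reduced to lactate and exported or enters the mitochondria, a branch that PDK1 closes by inhibiting pyruvate dehydrogenase. HIF-1 is the transcription factor that raises most of these genes when oxygen is low. Its alpha subunit, encoded by *Hif1a*, is hydroxylated and marked for degradation by the prolyl hydroxylases EGLN1 and EGLN3 when oxygen is present, so that the protein is controlled largely after transcription and mRNA does not report its activity.

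HIF-1 binds DNA at a short core, RCGTG, where R is A or G. The core was searched as ACGTG or GCGTG on both strands of 300-base promoters around the annotated starts, taken from RefSeq on GRCm38.p6. Of the 34 genes, 31 matched by symbol with 44 promoters, and *Slc2a3*, *Ndrg1* and *Bnip3l* had no entry. A core stood in 36 of the 44 promoters (81.8%) against 43.8% of all 32851 promoters of the same length, or in 28 of 31 genes (90.3%) against 46.7% of all genes. Promoters of *Eno2*, *Gpi1* and *Tpi1* held none. The A form, ACGTG, stood in 23 of 44 (52.3%) against 19.6% of all promoters. The palindrome CACGTG, which contains the core on both strands and is bound by other factors, stood in 6 of 44 (13.6%) against 7.15%. The promoters of the members were also richer in GC, with a median of 61.8% against 52.7%. Among 10834 promoters of genes tested between the WT groups, 62.6% held a core, against 35 of 43 members (81.4%). ACGTG stood in 26.1% of them, against 23 of 43 members (53.5%). Among the 4472 of these that had a like GC content (56.25% to 66.8%), 68.0% held a core, against 18 of 22 members (81.8%). There 28.8% held ACGTG, against 10 of 22 members (45.5%). Since some members were chosen as HIF targets, these shares are not independent of the choice. A match describes the letters of the window and is not a bound site. Promoters of 4 genes were chosen for display from those that hold the core, so its presence in all 4 follows from the choice. *Ankrd37* and *Hk2* stood lower, and *Hif1a* and *Bnip3* higher, in the WT controls of LDAH-KO than in those of LDAH-Tg. *Eno2* (log2 -0.90) and *Tpi1* (log2 0.64) also differed there, lower and higher, but their promoters held no core and are not shown. The display therefore does not link the core to these differences. The 4 promoters shown lie at chr8:45999801-46000100 (minus strand, *Ankrd37*), chr6:82774405-82774704 (minus strand, *Hk2*), chr12:73907617-73907916 (plus strand, *Hif1a*) and chr7:138909457-138909756 (minus strand, *Bnip3*). Each is written 5′ to 3′ along its gene, and capitals mark the core, which reads CACGT or CACGC where it lies on the opposite strand. Overlapping cores run together.
Ankrd37: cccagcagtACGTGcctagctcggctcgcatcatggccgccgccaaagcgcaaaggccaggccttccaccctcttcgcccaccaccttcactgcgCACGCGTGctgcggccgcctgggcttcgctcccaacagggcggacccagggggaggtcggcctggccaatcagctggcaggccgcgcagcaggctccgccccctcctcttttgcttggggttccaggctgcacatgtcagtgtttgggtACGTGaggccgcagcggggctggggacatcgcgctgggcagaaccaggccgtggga
Hk2: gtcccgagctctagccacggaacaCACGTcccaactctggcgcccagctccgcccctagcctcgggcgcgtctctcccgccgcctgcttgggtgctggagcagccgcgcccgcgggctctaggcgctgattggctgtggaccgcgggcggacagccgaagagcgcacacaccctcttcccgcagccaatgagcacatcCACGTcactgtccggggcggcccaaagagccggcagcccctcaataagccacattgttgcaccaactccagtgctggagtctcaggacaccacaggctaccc
Hif1a: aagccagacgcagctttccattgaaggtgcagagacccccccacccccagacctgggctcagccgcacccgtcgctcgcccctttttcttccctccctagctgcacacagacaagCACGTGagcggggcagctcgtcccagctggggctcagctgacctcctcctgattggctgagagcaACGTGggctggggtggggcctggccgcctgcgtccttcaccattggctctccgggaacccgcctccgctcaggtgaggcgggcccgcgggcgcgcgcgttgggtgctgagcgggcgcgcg
Bnip3: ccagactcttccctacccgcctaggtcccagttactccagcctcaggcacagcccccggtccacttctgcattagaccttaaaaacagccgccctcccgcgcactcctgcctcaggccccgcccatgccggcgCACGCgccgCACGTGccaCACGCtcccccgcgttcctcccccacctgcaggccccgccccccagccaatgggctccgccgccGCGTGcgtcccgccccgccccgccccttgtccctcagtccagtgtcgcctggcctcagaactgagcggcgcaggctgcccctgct

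The *Ankrd37* promoter held 4 cores, that of *Hk2* 2, that of *Hif1a* 3 and that of *Bnip3* 5, and those of *Hk2* and *Hif1a* were all of the A form, while those of *Ankrd37* and *Bnip3* also included GCGTG.

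Levels of the 34 genes spanned from 0.611 to 2918 TPM in these foam cells. *Gapdh*, which oxidizes glyceraldehyde-3-phosphate, had the highest level in every group, with 2868 TPM in the WT controls of LDAH-Tg, 2918 TPM in LDAH-Tg PM, 2097 TPM in the WT controls of LDAH-KO and 2018 TPM in LDAH-KO PM. *Aldoa*, the muscle-type aldolase that cleaves fructose-1,6-bisphosphate, followed with 2724, 2776, 1997 and 1824 TPM in the same order of groups. *Pkm*, the pyruvate kinase of the last step, was next with 1036, 975, 1405 and 1336 TPM. At the other end, *Adm*, which encodes the vasodilator peptide adrenomedullin, had 0.813, 0.699, 0.896 and 0.611 TPM, under the minimum of 1 TPM in every comparison, and is therefore given by its level alone. *Slc2a3*, the neuronal-type transporter GLUT3, had 0.769 TPM in the WT controls of LDAH-Tg and 0.813 TPM in LDAH-Tg PM and did not enter that comparison, but it reached 2.03 TPM in the WT controls of LDAH-KO and 1.55 TPM in LDAH-KO PM. The plot of levels shows that the pair of groups of one line mostly lies together and apart from the pair of the other line.

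**Figure D1:**
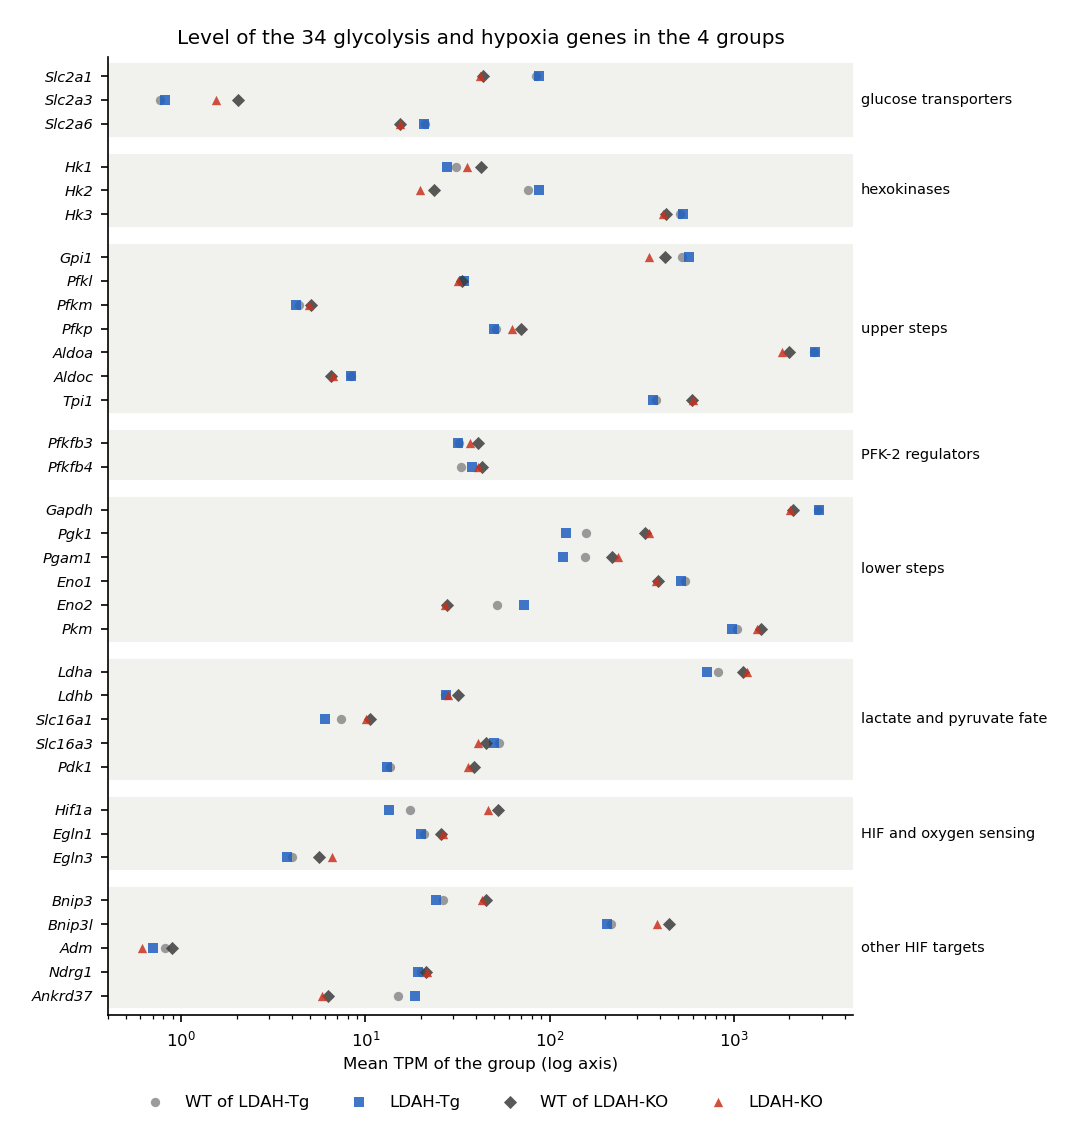
Authors' mean TPM of each of the 34 genes (rows, grouped by role) in the 4 groups, on a log axis; each marker is 1 group mean of 4 samples, with no error since no values of single samples were used. *Gapdh* and *Aldoa* lie highest, *Adm* lies under 1 TPM in every group, and for *Hk2*, *Pdk1* and *Hif1a* the LDAH-Tg line and the LDAH-KO line form separate pairs.

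For hexokinase, aldolase, enolase and lactate dehydrogenase, most of the transcripts came from 1 gene. *Hk3*, a hexokinase common in myeloid cells, made up 82.7%, 82.2%, 86.6% and 88.1% of the summed hexokinase TPM in the WT controls of LDAH-Tg, LDAH-Tg PM, the WT controls of LDAH-KO and LDAH-KO PM. *Aldoa* made up at least 99.6% of the 2 aldolases in every group, and *Ldha*, which reduces pyruvate to lactate, at least 96.3% of the 2 lactate dehydrogenases. *Slc2a1*, the broadly expressed transporter GLUT1, made up 79.4%, 80.1%, 71.2% and 71.3% of the summed TPM of *Slc2a1*, *Slc2a3* and *Slc2a6*. *Slc2a8*, an intracellular glucose transporter outside the 34 genes, had 15.1, 14.7, 19.1 and 13.8 TPM, a level like that of *Slc2a6*, a transporter of lysosomal membranes in macrophages. *Pfkp*, the platelet-type phosphofructokinase, made up 57.7%, 56.4%, 64.5% and 63.1% of its step, ahead of the liver type *Pfkl*, and the muscle type *Pfkm* stayed under 5%. Of the monocarboxylate transporters, *Slc16a3*, the lactate exporter MCT4, had 53.0, 49.8, 45.3 and 40.8 TPM, while *Slc16a7* (MCT2), outside the 34 genes, had 17.8, 12.8, 64.5 and 56.0 TPM, above *Slc16a3* in the LDAH-KO line. *Pfkfb3* and *Pfkfb4*, which make and break the activator fructose-2,6-bisphosphate, were nearly even, with *Pfkfb4* at between 50.6% and 54.5% of the pair. Of the mitophagy receptors, *Bnip3l* exceeded *Bnip3* by far, with shares between 89.1% and 90.7%. Of the prolyl hydroxylases, *Egln1* had 20.8, 20.04, 25.6 and 26.5 TPM and *Egln3* between 3.73 and 6.57 TPM, both under *Egln2*, outside the 34 genes, with 34.3, 33.02, 45.4 and 47.8 TPM.

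**Figure D2:**
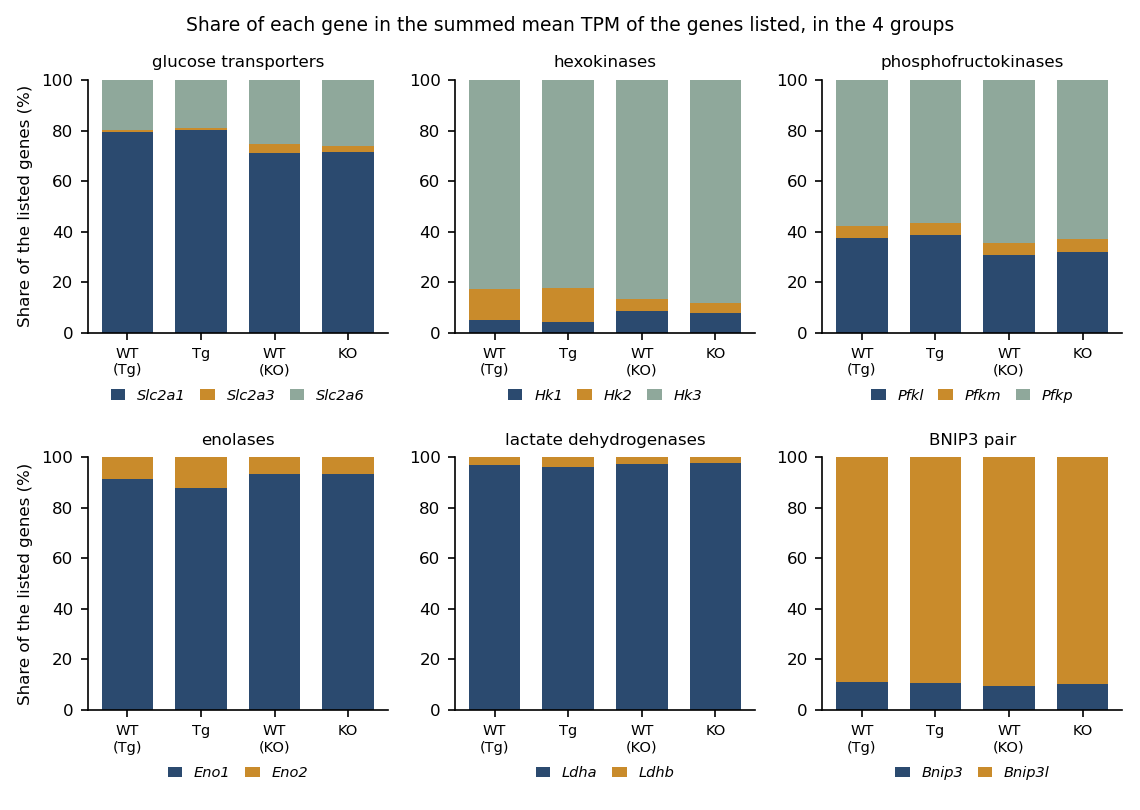
Share of each gene in the summed mean TPM of the genes listed for its panel (y axis, %) in the 4 groups (x axis: WT controls of LDAH-Tg, LDAH-Tg, WT controls of LDAH-KO, LDAH-KO). *Hk3* held between 82.2% and 88.1% of the hexokinases, while *Hk2* held 12.3% and 13.5% in the LDAH-Tg line and 4.77% and 4.23% in the LDAH-KO line.

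The first comparison asked how a gain of LDAH in PM affects these genes. None of the 32 genes tested reached a factor of 1.5 between LDAH-Tg PM and their WT controls, where 1.95% of all 11395 genes did. The median log2 ratio was -0.04 for the 32 genes and 0.00 for all genes, with 12 genes higher and 20 lower at any size (62.5% lower, against 49.5% of all genes). At a factor of 1.2, 2 genes were higher, *Eno2* and *Ankrd37* (background 11.2%), and 3 were lower, *Pgk1*, *Pgam1* and *Hif1a* (background 8.48%). The summed level of the 16 enzyme genes from hexokinase to pyruvate kinase was 9155 TPM in controls and 9171 TPM in LDAH-Tg PM, a ratio of 1.00.

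The largest single ratio was that of *Eno2*, the neuronal-type enolase (ENSMUSG00000004267.16, chr6:124760053-124769673, minus strand, GRCm38 as in GENCODE M21). Its mean was 52.0 TPM in controls and 72.9 TPM in LDAH-Tg PM, 40.1% higher (log2 0.48), and its share of *Eno1* and *Eno2* together was 8.78% and 12.3%. *Eno1*, the main enolase, had 541 and 518 TPM (log2 -0.06), so the pair summed to 593 and 591 TPM. *Ankrd37*, an ankyrin repeat protein known as a HIF-1 target, had 15.1 TPM in controls and 18.6 TPM in LDAH-Tg PM (log2 0.30). It shares its locus with *Ufsp2* (88.7 and 82.4 TPM), and the counting setting for strand is not given in the sources used here, so reads of these 2 genes may not have been told apart.

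Lower in LDAH-Tg PM were consecutive enzymes of the payoff phase. *Pgk1* (ENSMUSG00000062070.12, chrX:106187100-106203699, plus strand), the first step that yields ATP, had 159 TPM in controls and 122 TPM in LDAH-Tg PM (log2 -0.38), and *Pgam1* (ENSMUSG00000011752.6, chr19:41911923-41918660, plus strand), the mutase of the next step, had 155 and 118 TPM (log2 -0.40). *Ldha* had 826 and 713 TPM (log2 -0.21), and *Slc16a1*, the transporter MCT1, 7.33 and 6.05 TPM (log2 -0.26). Next to *Pgk1* and *Pgam1* in the pathway, *Gapdh* had a log2 ratio of 0.02 and the enolases stood at -0.06 (*Eno1*) and 0.48 (*Eno2*), and *Pkm*, at the end, had -0.09. *Hif1a* itself (ENSMUSG00000021109.13, chr12:73901375-73947530, plus strand) had 17.4 TPM in controls and 13.4 TPM in LDAH-Tg PM (log2 -0.37), whereas its hydroxylases *Egln1* and *Egln3* were within 0.10 of their controls on the log2 scale.

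The hexokinases (2 higher, 1 lower) and upper steps (4 higher, 3 lower) were divided, and after adjustment for GC content and transcript length the counts were 1 and 2, and 2 and 5. *Hk2* (ENSMUSG00000000628.10, chr6:82725025-82774454, minus strand), the inducible hexokinase bound to mitochondria, had 76.7 TPM in controls and 87.1 TPM in LDAH-Tg PM (log2 0.18), against 30.9 and 27.8 TPM for *Hk1* (log2 -0.15) and 514 and 529 TPM for *Hk3* (log2 0.04). *Gpi1*, which isomerizes glucose-6-phosphate, had 522 and 568 TPM (log2 0.12). *Pfkfb4* had 32.9 and 38.0 TPM (log2 0.20) and *Pfkfb3* 32.2 and 31.7 TPM (log2 -0.02). The remaining genes of the upper steps, *Pfkl*, *Pfkm*, *Pfkp*, *Aldoa*, *Aldoc* and *Tpi1*, had log2 ratios between -0.06 and 0.04. *Slc2a1* had 84.0 and 87.4 TPM (log2 0.06) and *Slc2a6* 20.99 and 20.86 TPM (log2 -0.01). Among other HIF targets, *Bnip3* had 26.2 and 24.1 TPM (log2 -0.12), *Bnip3l* 215 and 206 TPM (log2 -0.06) and *Ndrg1*, a stress-responsive gene, 19.9 and 19.3 TPM (log2 -0.05). *Pdk1* had 13.7 and 13.1 TPM (log2 -0.06), *Slc16a3* 53.0 and 49.8 TPM (log2 -0.09) and *Ldhb*, the heart-type lactate dehydrogenase, 26.9 and 27.5 TPM (log2 0.03).

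The second comparison asked the same of a loss of LDAH. None of the 33 genes tested reached a factor of 1.5 between LDAH-KO PM and their WT controls, where 2.22% of all 11289 genes did. The median log2 ratio was -0.07 for the 33 genes and -0.08 for all genes. At any size 8 genes were higher and 25 lower (75.8% lower, against 66.6% of all genes), but after the median ratio of all genes was set to 0 the split was 18 higher and 15 lower, since the 10 genes with ratios from -0.07 to -0.01 turned positive. Past a factor of 1.2, no gene was higher (background 3.22%) and 2 were lower, *Slc2a3* and *Gpi1* (background 15.6%). The summed level of the 16 enzyme genes was 8090 TPM in controls and 7694 TPM in LDAH-KO PM, a ratio of 0.951.

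The 4 lowest log2 ratios in LDAH-KO PM were those of *Slc2a3*, *Gpi1*, *Hk1* and *Hk2*, whereas after adjustment for GC content and transcript length they were those of *Ldhb* (-0.30), *Gpi1* (-0.29), *Ankrd37* (-0.27) and *Aldoa* (-0.25). *Slc2a3* had 2.03 TPM in controls and 1.55 TPM in LDAH-KO PM (log2 -0.30), at a level where *Gm4482*, a gene on the same locus, had 0.457 and 0.389 TPM. *Gpi1* had 422 and 349 TPM (log2 -0.28). All 3 hexokinases were lower, with 42.7 and 35.7 TPM for *Hk1* (log2 -0.25), 23.6 and 19.8 TPM for *Hk2* (log2 -0.25) and 428 and 412 TPM for *Hk3* (log2 -0.05), although the last turned positive when the median of all genes was set to 0. *Slc2a1* (43.3 and 41.9 TPM, log2 -0.05) and *Slc2a6* (15.5 and 15.3 TPM, log2 -0.01) stood near their controls. Of the further upper steps, *Pfkp* had 70.3 and 62.7 TPM (log2 -0.16), *Aldoa* a log2 ratio of -0.13, *Pfkl* 33.5 and 31.7 TPM (log2 -0.08), and *Pfkm*, *Aldoc* and *Tpi1* ratios between -0.03 and 0.03. *Pfkfb3* had 41.0 and 36.9 TPM (log2 -0.15) and *Pfkfb4* 43.0 and 40.8 TPM (log2 -0.07).

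Of the enzymes from hexokinase to lactate dehydrogenase that were lower in LDAH-Tg PM, *Tpi1*, *Pgk1*, *Pgam1* and *Ldha* stood slightly above their controls in LDAH-KO PM. *Hk1*, *Pfkm*, *Pfkp*, *Eno1* and *Pkm* were lower in both genotypes as deposited. In LDAH-KO PM, *Pfkm*, *Eno1* and *Pkm* turned positive when the median of all genes was set to 0. *Pfkp* came to 0.07 there after adjustment for GC content and transcript length. *Pgk1* had 331 TPM in controls and 348 TPM in LDAH-KO PM (log2 0.08), *Pgam1* 220 and 236 TPM (log2 0.10) and *Ldha* 1130 and 1188 TPM (log2 0.07), although these 3 values came to between -0.01 and 0.02 after an adjustment for GC content and transcript length. *Tpi1* went from 0.03 to -0.11 under the same adjustment. Of *Tpi1*, *Pgk1*, *Pgam1* and *Ldha*, only *Pgam1* then stayed above its controls in LDAH-KO PM. *Eno2* had 27.8 and 27.0 TPM (log2 -0.04) and *Eno1* 389 and 377 TPM (log2 -0.04). *Pkm* had a log2 ratio of -0.07 and *Gapdh* of -0.06. *Hif1a* was lower in LDAH-KO PM too, with 52.5 and 46.3 TPM (log2 -0.18). The largest positive ratio of the comparison was that of *Egln3*, with 5.62 and 6.57 TPM (log2 0.21), while *Egln1* had 25.6 and 26.5 TPM (log2 0.05).

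The remaining genes are given beside a median log2 ratio of -0.08 over all genes, and *Slc16a1* turned positive when that median was set to 0. *Slc16a3* had 45.3 and 40.8 TPM (log2 -0.15), *Slc16a1* 10.6 and 10.1 TPM (log2 -0.07), *Ldhb* 31.8 and 28.2 TPM (log2 -0.17) and *Pdk1* 38.8 and 36.2 TPM (log2 -0.10). *Bnip3l* had 445 and 383 TPM (log2 -0.21) and *Bnip3* 45.4 and 42.8 TPM (log2 -0.08). *Ankrd37* had 6.28 and 5.78 TPM (log2 -0.11), and *Ndrg1* 21.4 and 21.6 TPM (log2 0.02).

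**Figure D3:**
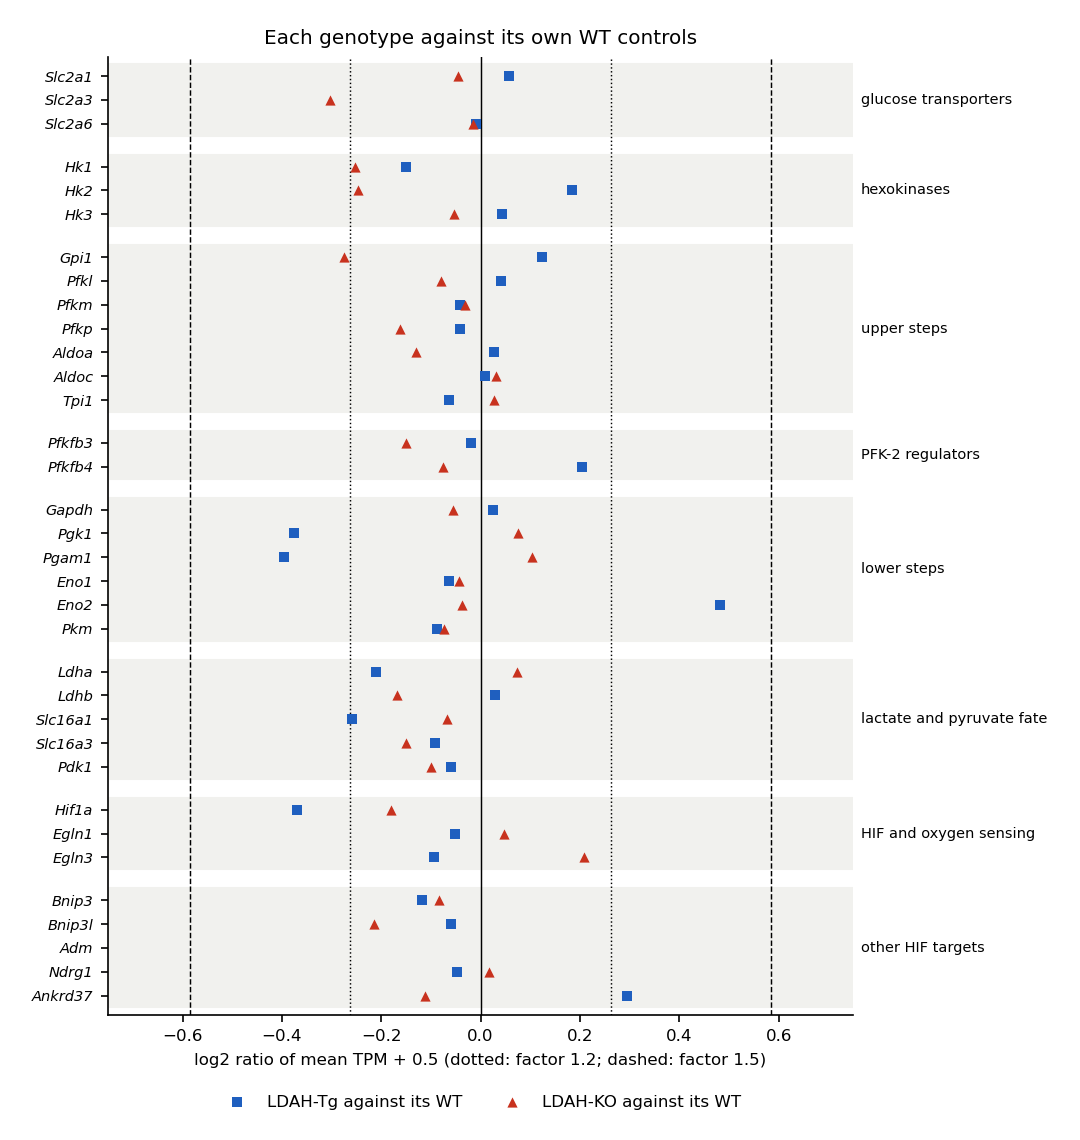
Log2 ratio of mean TPM + 0.5 (x axis) of each gene (y axis) in LDAH-Tg PM (squares) and LDAH-KO PM (triangles) against their own WT controls; each marker compares 2 group means and has no error. No gene reaches the dashed lines at a factor of 1.5, and the widest pair is that of *Eno2*, at 0.48 in LDAH-Tg PM and -0.04 in LDAH-KO PM.

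Gain and loss of LDAH were then set side by side, since each had its own controls. Of the 32 genes tested in both, 18 (56.25%) had ratios of opposite sign, against 49.4% of all 10858 genes tested in both. Above their controls in LDAH-Tg PM and below them in LDAH-KO PM were 11 genes (34.4%, background 32.3%): *Slc2a1*, *Hk2*, *Hk3*, *Gpi1*, *Pfkl*, *Aldoa*, *Pfkfb4*, *Gapdh*, *Eno2*, *Ldhb* and *Ankrd37*. The reverse held for 7 genes (21.9%, background 17.1%): *Tpi1*, *Pgk1*, *Pgam1*, *Ldha*, *Egln1*, *Egln3* and *Ndrg1*. A further 13 genes, *Hif1a* among them, were lower in both (40.6%, background 33.9%), and *Aldoc* alone was higher in both (3.12%, background 16.7%). These shares lie near those of all genes apart from the last, and most of the ratios are small. With a size of at least 0.1 asked of both ratios, 4 genes of opposite sign were left, *Hk2*, *Gpi1* and *Ankrd37* from the first group and *Pgam1* from the second. The share of all genes at that size was not computed, so whether this count is high or low is unknown. Setting the median of all genes to 0 moved genes between these patterns, to 6 of the first and 12 of the second, with 6 above and 8 below their controls in both. The low count of genes higher in both thus depended on the scaling. Shares of all genes were not computed for the rescaled patterns. *Hk2*, *Gpi1* and *Pgam1* had opposite signs under this scaling, under quantile normalization and after adjustment for GC content and length, whereas *Ankrd37* was above its controls in both genotypes under quantile normalization.

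The WT controls of the 2 lines stood further apart in these genes than either genotype did from its controls. Between the WT controls of LDAH-KO and those of LDAH-Tg, 7 of the 33 genes tested were higher by a factor of 1.5 (21.2%, background 26.5%) and 4 were lower (12.1%, background 12.1%), shares near or under those of all 11404 genes. The median log2 ratio was 0.29 for the 33 genes and 0.17 for all genes. At a factor of 1.2, 17 were higher and 10 lower (backgrounds 44.6% and 25.1%), and at a factor of 2, 4 and 2 (backgrounds 10.3% and 4.7%). Setting the median of all genes to 0 left 6 higher and 8 lower (backgrounds 18.2% and 18.4%). Because the control columns are also those of the genotype comparisons, the 3 sets of ratios are given side by side and not related to each other.

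HIF and mitophagy genes stood higher in the WT controls of LDAH-KO. *Hif1a* had 17.4 TPM in the WT controls of LDAH-Tg and 52.5 TPM in those of LDAH-KO, a ratio of 3.01 (log2 1.56). *Pdk1* had 13.7 and 38.8 TPM (log2 1.47), *Bnip3l* 215 and 445 TPM (log2 1.05) and *Bnip3* 26.2 and 45.4 TPM (log2 0.78). Both hydroxylases leaned the same way, at log2 0.29 for *Egln1* and 0.44 for *Egln3*. Of the enzymes, *Pgk1* had 159 and 331 TPM (log2 1.06) and *Tpi1* 379 and 593 TPM (log2 0.64), although *Tpi1* stood under the factor, at 0.46, when the median of all genes was set to 0. *Slc2a3* had 0.769 and 2.03 TPM (log2 0.99).

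Other HIF targets stood lower in the same cells. *Hk2* had 76.7 TPM in the WT controls of LDAH-Tg and 23.6 TPM in those of LDAH-KO, a ratio of 0.307 (log2 -1.68), and its share of the hexokinases was 12.3% and 4.77%. *Ankrd37* had 15.1 and 6.28 TPM (log2 -1.20), *Slc2a1* 84.0 and 43.3 TPM (log2 -0.95) and *Eno2* 52.0 and 27.8 TPM (log2 -0.90). Thus *Hk2*, *Ankrd37* and *Slc2a1* on one side and *Pdk1*, *Bnip3* and *Pgk1* on the other, all known as HIF-1 targets, differed in opposite directions, and so did neighbours in the pathway. *Eno2*, *Tpi1* and *Gapdh* lie within 406 kb of chromosome 6 (124760053 to 125166467, GRCm38), with log2 ratios of -0.90, 0.64 and -0.45.

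The remaining genes lay within the factor. *Aldoa* (log2 -0.45), *Gapdh* (-0.45), *Eno1* (-0.48) and *Slc2a6* (-0.43) were lower, and these 4 passed the factor when the median of all genes was set to 0, with log2 ratios between -0.66 and -0.61. *Hk3* (-0.26), *Gpi1* (-0.30), *Aldoc* (-0.33) and *Slc16a3* (-0.23) were lower by less. *Hk1* (0.46), *Pfkp* (0.45), *Pgam1* (0.50), *Pkm* (0.44), *Ldha* (0.45), *Slc16a1* (0.51), *Pfkfb3* (0.35) and *Pfkfb4* (0.38) were higher, and so, by less, were *Pfkm* (0.20) and *Ldhb* (0.24). *Pfkl* (0.01) and *Ndrg1* (0.10) were nearest to equal and turned negative when the median of all genes was set to 0. The summed enzyme genes were 9155 and 8090 TPM, a ratio of 0.884, while the lactate dehydrogenases were 853 and 1162 TPM, a ratio of 1.36.

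**Figure D4:**
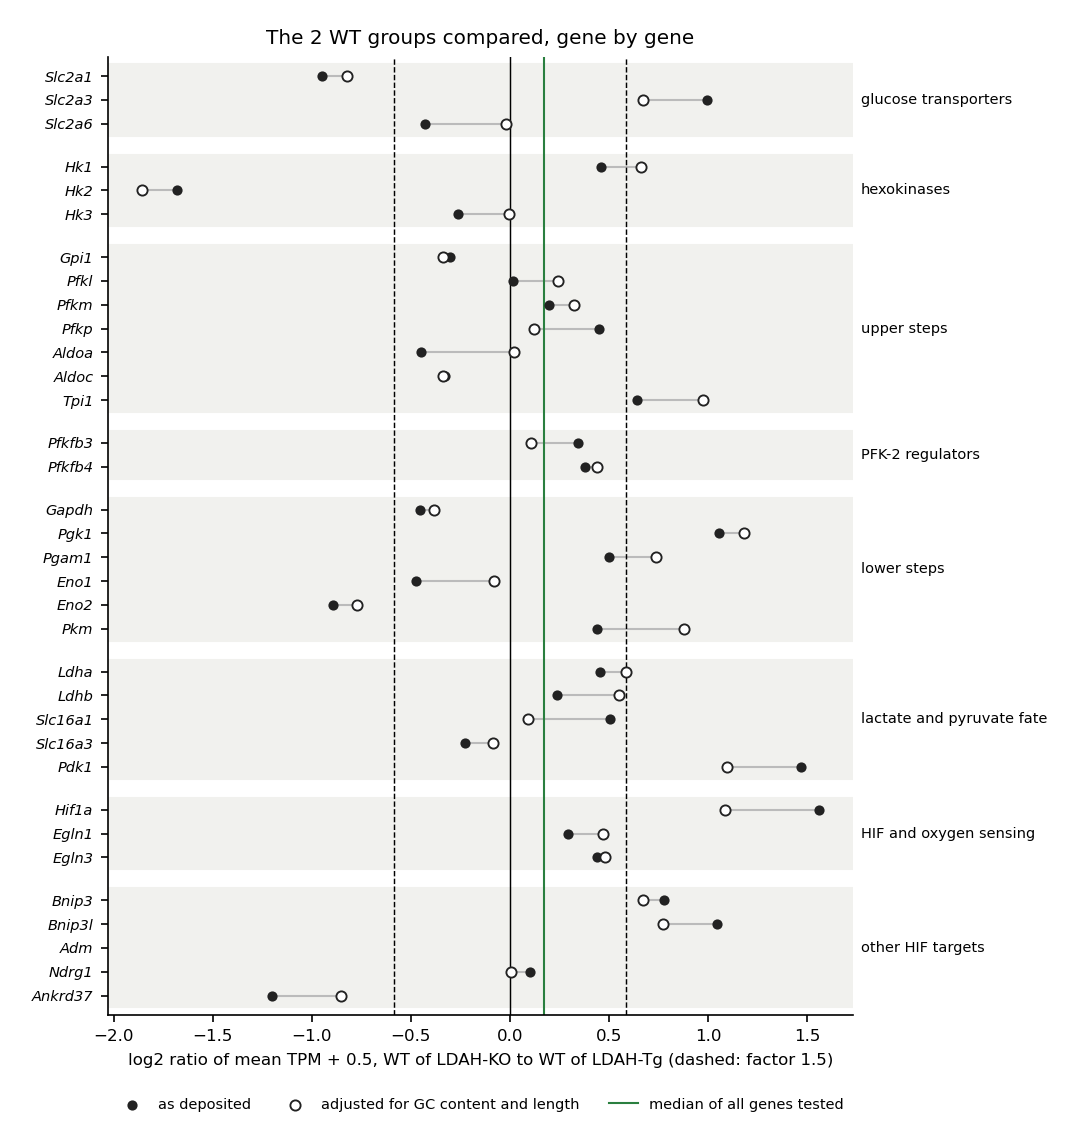
Log2 ratio of mean TPM + 0.5 in the WT controls of LDAH-KO to those of LDAH-Tg (x axis) for each gene (y axis), as deposited (filled) and after adjustment for GC content and transcript length (open); dashed lines mark a factor of 1.5 and the green line the median of all genes, 0.17. *Hif1a* (1.56) and *Pdk1* (1.47) lie furthest right and *Hk2* (-1.68) and *Ankrd37* (-1.20) furthest left, on the same side before and after the adjustment.

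The difference between the WT controls moved with the base composition of the transcripts. Across 11377 genes, the Spearman correlation of the log2 ratio with the GC content of the longest transcript was -0.356 and with its length 0.319, as a description across genes that share the same 2 columns. The median log2 ratio went from 0.46 in the fifth of genes with the least GC to -0.20 in the fifth with the most. For the 33 glycolysis and hypoxia genes the correlation with GC content was -0.557. *Hif1a* (41.3% GC), *Bnip3* (41.6%) and *Bnip3l* (41.9%) lay among the genes poorest in GC, and *Slc2a6* (58.2%), *Eno1* (57.4%) and *Aldoa* (56.9%) among the richest. After ratios were centered within bins of like GC content and length, *Hif1a* kept a log2 ratio of 1.09, *Pdk1* 1.10, *Pgk1* 1.18 and *Hk2* -1.86, and *Ankrd37* -0.85, whereas *Aldoa* came to 0.02, *Slc2a6* to -0.02 and *Eno1* to -0.08. The same adjustment placed *Pkm* at 0.88, *Pgam1* at 0.74, *Hk1* at 0.66 and *Ldha* at 0.59, so that 11 genes were higher (background 22%) and 4 lower (background 10.4%). The part of library preparation in these differences was not tested.

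**Figure D5:**
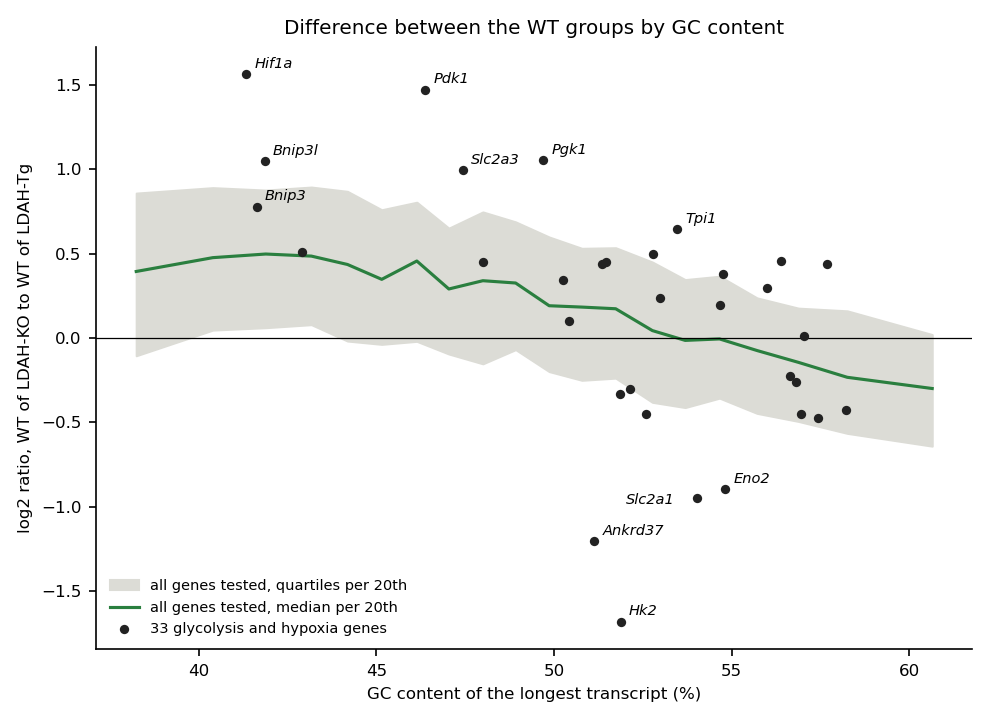
Log2 ratio of the WT controls of LDAH-KO to those of LDAH-Tg (y axis) against GC content of the longest transcript (x axis, %), with points for the 33 genes tested and the median and quartiles of all genes in 20 bins of GC content (line and band). The median of all genes declines as GC content rises, and *Hif1a* (41.3% GC, 1.56), *Pdk1*, *Hk2* (-1.68) and *Ankrd37* lie outside the band.

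Within the genotype comparisons the same features moved less or otherwise. The correlation of the log2 ratio with GC content was 0.306 across 11372 genes for LDAH-Tg, with medians from -0.08 in the genes poorest in GC to 0.10 in the richest, and 0.153 across 11262 genes for LDAH-KO, where the correlation with transcript length was -0.543. For the glycolysis and hypoxia genes the values were 0.310 with GC content in LDAH-Tg (32 genes) and -0.444 with length in LDAH-KO (33 genes). The 5 LDAH-Tg ratios past a factor of 1.2 remained past it after the adjustment, at 0.45 for *Eno2*, 0.27 for *Ankrd37*, -0.35 for *Pgk1*, -0.39 for *Pgam1* and -0.29 for *Hif1a*. Over all 11372 genes, 1180 were higher and 746 lower past that factor after the adjustment. Smaller ones changed sign, as for *Bnip3* (-0.12 to 0.01), *Bnip3l* (-0.06 to 0.04), *Hk3* (0.04 to -0.03), *Pfkl* (0.04 to -0.06) and *Aldoa* (0.03 to -0.03). In LDAH-KO, 3 of the 33 genes were lower past a factor of 1.2 after adjustment, where 1123 of all 11262 genes were. They were *Ldhb* (-0.30), *Gpi1* (-0.29) and *Ankrd37* (-0.27), while *Slc2a3* (-0.17) no longer was lower past it, and *Hk2* had -0.15 and *Hif1a* -0.10.

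Genes around the pathway were examined through 7 further lists, none of which had a member past a factor of 1.5 in either genotype comparison. Of all genes tested, only 1.95% passed it for LDAH-Tg and 2.22% for LDAH-KO. For LDAH-Tg the median of pyruvate entry to mitochondria was -0.14 over 11 of 13 genes, the lowest of the 7 as deposited, but -0.06 after adjustment, when that of HIF partners was -0.10 and that of the pentose phosphate pathway -0.07. As deposited, 2 of its genes were lower past a factor of 1.2 (background 8.48%), *Mpc1*, a subunit of the pyruvate carrier (302 TPM in controls and 242 TPM in LDAH-Tg PM, log2 -0.31), and *Dlat*, the E2 subunit of pyruvate dehydrogenase (27.0 and 22.1 TPM, log2 -0.28, -0.26 after adjustment). The medians of the others were -0.02 for 21 of 25 further HIF targets, -0.04 for 7 of 8 HIF partners and regulators, -0.08 for the 8 genes of the pentose phosphate pathway, -0.03 for 13 of 26 other genes of glycolysis and gluconeogenesis, -0.06 for the 19 genes of the tricarboxylic acid cycle and 0.01 for 10 of 11 glucose-responsive and upstream genes. *Suclg1* (81.8 and 59.7 TPM, log2 -0.45) and *Sucla2* (39.3 and 30.0 TPM, log2 -0.38), subunits of succinyl-CoA synthetase, and *Slc16a7*, the transporter MCT2 (17.8 and 12.8 TPM, log2 -0.47), stood lowest, while *Vegfa*, the HIF-induced angiogenic factor, had 60.6 and 74.6 TPM (log2 0.30).

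For LDAH-KO the medians of the 7 lists, in the order just given with pyruvate entry first, were -0.02 over 12 genes, -0.08, -0.02, -0.02, -0.03, -0.04 and -0.08, against -0.08 for all genes. After adjustment for GC content and length they were -0.08, -0.10, -0.03, -0.03, -0.03, -0.09 and -0.05, again against -0.08. *Epas1*, which encodes HIF-2 alpha, had 78.5 TPM in controls and 63.4 TPM in LDAH-KO PM (log2 -0.31, -0.20 after adjustment). *Arnt*, the partner of both HIF alpha subunits, had 29.48 and 25.04 TPM (log2 -0.23, -0.16 after adjustment). *Slc2a8*, an intracellular glucose transporter (19.1 and 13.8 TPM, log2 -0.45), and *Pdpr*, a regulator of pyruvate dehydrogenase phosphatase (10.1 and 7.31 TPM, log2 -0.44), stood lowest. *Trib3*, a stress-induced pseudokinase (6.07 and 7.35 TPM, log2 0.26), and *Mpc2*, the other subunit of the pyruvate carrier (86.0 and 102 TPM, log2 0.24), stood highest.

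Between the WT controls, where 26.5% of all genes were higher and 12.1% lower by a factor of 1.5, 8 of 12 genes of pyruvate entry were higher and 0 lower, with a median log2 ratio of 0.72 against 0.17 for all genes. After adjustment for GC content and length 5 were higher and 1, *Mpc2* (-0.77), was lower, with a median of 0.50 (22% and 10.4% of all genes). *Pdpr* had 0.674 and 10.1 TPM (log2 3.17), *Pdk3*, a sister kinase of PDK1, 7.93 and 16.8 TPM (log2 1.04) and *Dld*, the E3 subunit of pyruvate dehydrogenase, 74.8 and 133 TPM (log2 0.82). The further HIF targets were divided, with 5 higher and 3 lower and a median of 0.17, which came to -0.01 when the median of all genes was set to 0. *Gbe1*, the glycogen branching enzyme (21.3 and 55.9 TPM, log2 1.37), and *Ero1l*, an oxidase of the endoplasmic reticulum (14.2 and 33.6 TPM, log2 1.22), were among the higher. HIF partners (2 higher, 0 lower, median 0.15) included *Hif1an*, the asparaginyl hydroxylase of HIF, with 8.72 and 18.4 TPM (log2 1.03). The pentose phosphate pathway (3 higher, 0 lower, median 0.18, with 1 higher after adjustment) included *Pgd*, with 536 and 922 TPM (log2 0.78), and other glycolysis genes (6 higher, 2 lower, median 0.33) included *Slc16a7* (log2 1.83), *Gpd2* (log2 1.27) and *Pfkfb2* (log2 1.26). The tricarboxylic acid cycle (4 higher, 1 lower, median 0.29) held both *Sucla2* (39.3 and 97.0 TPM, log2 1.29) and fumarase, *Fh1* (92.1 and 35.6 TPM, log2 -1.36). Glucose-responsive and upstream genes (2 higher, 2 lower, median 0.16) included the kinases *Akt1* (log2 1.02) and *Akt2* (log2 1.15). The medians of HIF partners, the pentose phosphate pathway and glucose-responsive genes turned negative, between -0.03 and -0.01, when the median of all genes was set to 0.

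Marker levels of other cell types were set beside these results, first between the WT controls. Summed levels were 134 TPM in the WT controls of LDAH-Tg and 82.4 TPM in those of LDAH-KO for 10 neutrophil markers, of which *S100a8* made up most (107 and 63.8 TPM), 7 were under 1 TPM in every group and *Ly6g* was at 0. For 8 markers of resident peritoneal macrophages they were 60.4 and 95.1 TPM, with 4 under 1 TPM in every group. Of the rest, *Lyz1* (33.4 and 64.8 TPM) and *Fcna* (18.6 and 22.6 TPM) were higher, while *Gata6* (1.97 and 1.83 TPM) and *Icam2* (5.50 and 4.52 TPM) were lower. The macrophage marker *Adgre1* had 33.1 and 146 TPM, and *Cd68* 4959 and 3321 TPM. Markers of fibroblasts (26.9 and 36.2 TPM), mesothelium (7.89 and 7.49 TPM), eosinophils (3.20 and 4.57 TPM), T and NK cells (2.13 and 2.56 TPM), B cells (1.0097 and 1.24 TPM), mast cells (1.24 and 0.441 TPM) and erythroid cells (0.0082 and 0.0332 TPM) were low. Within the genotype comparisons, the summed fibroblast markers were 36.2 TPM in controls against 17.8 TPM in LDAH-KO PM and the mesothelial markers 7.49 against 4.58 TPM. In the LDAH-Tg line the resident macrophage markers were 60.4 against 45.7 TPM and *Adgre1* 33.1 against 22.4 TPM. Among the former, *Lyz1* (33.4 against 24.2 TPM), *Fcna* (18.6 against 13.8 TPM) and *Icam2* (5.50 against 4.76 TPM) were lower and *Gata6* (1.97 against 2.07 TPM) slightly higher. The part of these markers in the results was not tested. In bulk RNA, fewer cells of a type and less RNA per cell cannot be told apart.

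Of the 34 genes, 18 share their locus with another gene of the authors' table. The partner reached at least 10% of the member's own level for 5 of them: *Ankrd37* with *Ufsp2*, *Pfkm* with *Senp1*, *Pfkp* with *Pitrm1*, *Tpi1* with *Spsb2* and *Slc2a3* with *Gm4482*. The values of these 5 genes are therefore less certain than those of the others.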

How the data were processed

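The authors made stranded poly(A) libraries from PM of 4 groups with 4 samples each. According to the submitters' processing notes, the tools were STAR 2.4.2a, Cuffdiff 2.2.1, bcl2fastq 2.17.1.14, HTSeq, Trimmomatic and DESeq2, and the genome was mm10 (GRCm38). The tool that made the TPM values, the annotation release and the counting strand are not given in the sources used here. The values deposited by the authors are mean TPM per group, in 4 columns for 48432 genes, each summing to 1000000. One line with no gene, which repeats that total, was left out.

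The design assumed TPM per sample, and the planned limma fit could not be made on means. The log2 ratio of the means after adding 0.5 TPM was used instead, for genes with a mean of at least 1 TPM and no group at 0, with a factor of 1.5 as the size counted. In place of a test, the main counts stand beside the count or share of all genes. Counts after rescaling and at a log2 size of at least 0.1 do not all have one. The steps were tested on simulated data. The 34 genes and all lists were chosen with earlier results of these data known. All 34 genes are named, and of each other list up to 3 genes per comparison with the largest log2 ratio at a mean of at least 5 TPM, of which the text gives a selection, with *Ldah*, *Apoe* and cell markers as checks. GC content and length come from the longest GENCODE M21 transcript of each gene, and the adjustment subtracts the median ratio in 20 bins of each. Promoters come from RefSeq (GRCm38.p6). Computations ran in Python 3.11.15 (pandas 2.3.3, numpy 2.4.6, matplotlib 3.10.9, scipy 1.17.1).

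Alternatives were pseudocounts of 0.1 and 1, no filter, a minimum of 5 TPM, factors of 1.2 and 2, median-ratio scaling, quantile normalization, rescaling over genes above 0 in all columns, summed entries of a symbol, genes with a group at 0 kept and, chosen after seeing the data, the adjustment and promoters of like GC content.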

Additional observations from a re-analysis of the deposited data

How the results depend on the processing

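The columns are group means, so leaving out a replicate could not be run, no value has an error, and what depth limits cannot be seen. No paired analysis was possible because the columns carry no sample. No member reached a factor of 1.5 in either genotype comparison under any scaling, pseudocount or filter. At a factor of 1.2, LDAH-Tg had 2 members higher and 3 lower, LDAH-KO had 2 lower, and 17 were higher and 10 lower between the WT controls; at a factor of 2 the last counts were 4 and 2. With both log2 ratios at least 0.1 in size, 4 members had opposite signs in the genotypes, a count for which no share of all genes was computed. Median-ratio scaling set the median of all genes to 0, from 0.17 in the WT comparison. It turned the median of the members in LDAH-KO to 0.00606. Between the WT controls it gave 8 members lower and a median of 0.11, where quantile normalization gave a median of 0.076. The adjustment for GC content and length, chosen after seeing the data, gave 11 members higher there. The hypoxia core stood in 23 member promoters with ACGTG alone and in 18 of those with like GC content. The share of members that were lower in LDAH-KO thus depends on the scaling; the cause was not tested.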
